A study of Mus musculus with 5 samples.

Results

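Type I interferon-stimulated genes were examined in mouse heart grafts with and without ischemia reperfusion (I/R) injury. The set comprises 39 genes that were listed by name, from the interferon receptor to the antiviral proteins that it induces. A gene was measured if a probe set of the array carried its symbol as the only one, and the brightest such probe set was used for each gene. By this rule 36 of the 39 genes were measured, out of 19938 genes on 21789 single-symbol probe sets. Isg15 and Ifi204 were found only on probe sets with several symbols and were not measured. Ifi44 has no single-symbol probe set and was named through a list of changed genes in the study, so its values are given as a description, apart from the 36.

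The hearts of C57BL/6 mice (8 weeks old per the study's methods) were implanted into the abdomen of C57BL/6 recipients, so the transplants were syngeneic. In the I/R group (grafts 2553, 2555 and 2557, n = 3) the donor heart was kept for 18 h at low temperature in University of Wisconsin solution before implantation. In the non-I/R group (grafts 2554 and 2556, n = 2) the heart was implanted without this storage, so these grafts also went through surgery and reperfusion. The groups follow the source and tissue labels, whereas the treatment label of the non-I/R grafts carries the same cold storage text as that of the I/R grafts. The labels give harvest at 24 h after transplantation and the study text gives day 2, with 1 array for each graft and whole graft tissue as the source of RNA. All values are log2 expression values, so a difference of 1 is a 2-fold difference, and differences are the I/R mean minus the non-I/R mean.

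Type I interferons are secreted by cells that sense foreign or misplaced nucleic acid. They bind a receptor made of the IFNAR1 and IFNAR2 chains, whose kinases JAK1 and TYK2 activate STAT proteins. STAT proteins join IRF9 in the complex ISGF3, which binds the interferon-stimulated response element in promoters and switches on a large set of antiviral genes. Several of these genes, such as Irf7, Stat2, Irf9 and the RNA sensors, encode parts of the same pathway, so the response can feed itself. In heart tissue the response can come from cardiomyocytes, endothelial cells, fibroblasts and leukocytes, and in bulk tissue fewer cells of a type and less RNA per cell cannot be told apart.

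The core of the response element was searched as GAAANNGAAA on both strands of RefSeq promoter windows, from 250 bases before to 50 bases after the gene start (assembly GRCm38.p6). A window was given for 29 of the 39 genes, and 12 of them (41.4%) held the core, against 1079 of 27025 genes with a window (3.99%). Stretches of 4 members are shown because Ifitm1 and Ifitm3, which lie next to each other on chromosome 7 with no other coding gene in between, differed between the groups in opposite directions, and because Ifit1 and Ifit3 were among the members that varied most within the I/R group. Capitals mark the core or its reverse complement, and positions are counted from the gene start. Ifitm1 (chr7:140968026-140968125, plus strand) and Ifitm3 (chr7:141010695-141010794, minus strand) are shown from 50 bases before to 50 bases after the start, Ifit1 (chr19:34640770-34640828, plus strand) from -119 to -61 and Ifit3 (chr19:34583358-34583431, plus strand) from -171 to -98.
Ifitm1: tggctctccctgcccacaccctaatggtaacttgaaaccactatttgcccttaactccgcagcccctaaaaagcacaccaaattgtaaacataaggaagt
Ifitm3: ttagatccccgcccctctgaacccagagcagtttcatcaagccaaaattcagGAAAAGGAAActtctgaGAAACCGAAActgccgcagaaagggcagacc
Ifit1: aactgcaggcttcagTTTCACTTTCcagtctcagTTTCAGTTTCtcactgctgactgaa
Ifit3: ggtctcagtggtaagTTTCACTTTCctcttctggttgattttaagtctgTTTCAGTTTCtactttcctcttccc

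The Ifitm3 window held 2 cores, both just downstream of the start, and the Ifit1 and Ifit3 windows held 2 each, upstream of it. The windows of Ifitm1, Ifnar1, Xaf1 and Irf7 did not hold these letters. A match is a description of the sequence, and the data hold no measure of binding there.

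Most members were slightly lower in I/R grafts than in non-I/R grafts, and the members that differed most clearly were not on the same side. The I/R mean was below the non-I/R mean for 29 of the 36 members and above it for 7, beside 11448 and 9584 of the 21789 probe sets, of which 757 had equal means (within 1e-06). The median difference of the members was -0.14, beside -0.0079 for all probe sets, and the differences ran between -0.42 for Irf7 and 0.89 for Ifitm1. All but Ifitm1 lay within 0.5 of 0, and 0 of the 36 members reached a 2-fold difference, which 1.9% of all probe sets did. Ifi44, described apart, was 2.29-fold lower.

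**Figure D1:**
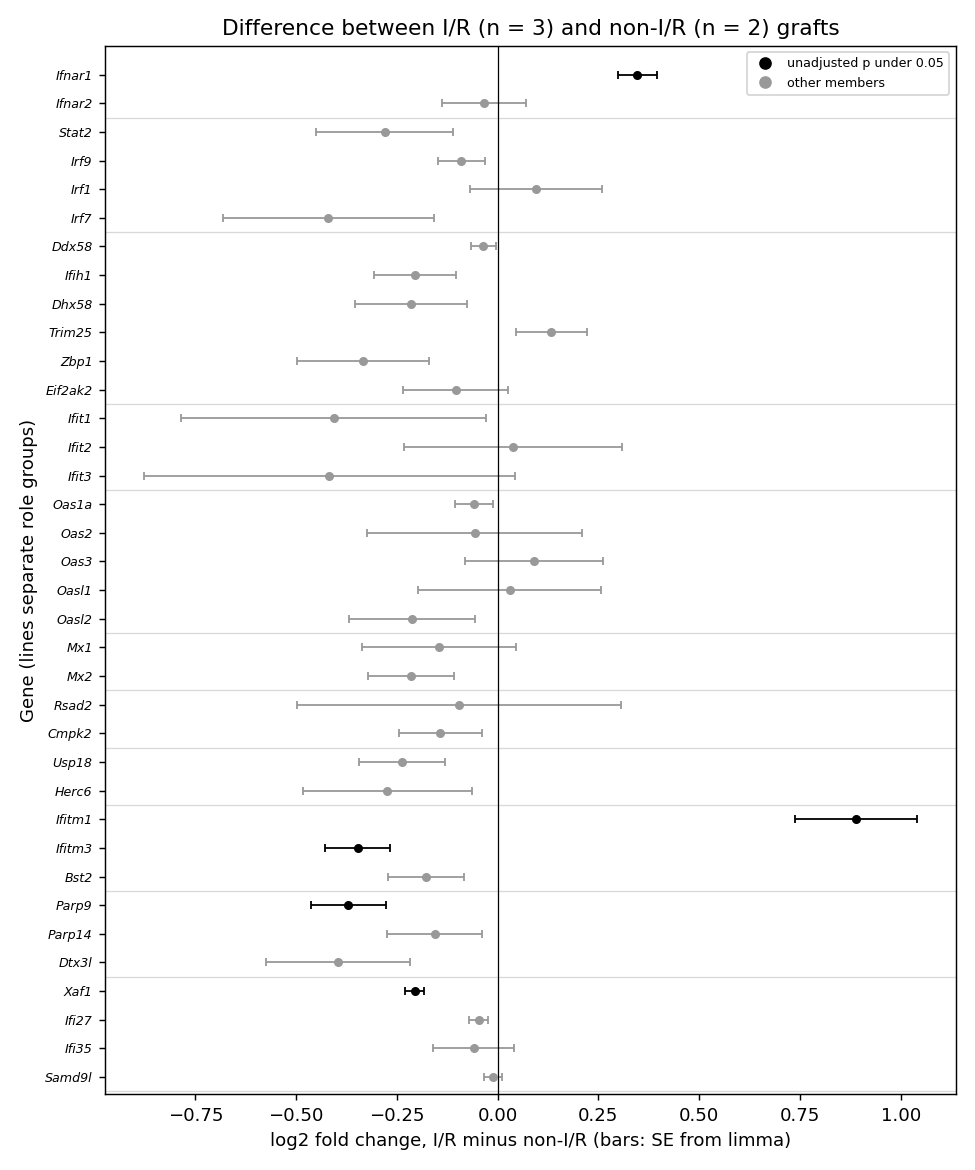
Difference in log2 expression (I/R mean minus non-I/R mean) of the 36 measured members, with the standard error of the limma fit as bars and the 5 members with an unadjusted p under 0.05 in black. Ifitm1 stands apart at 0.89, and 29 of the 36 points lie below 0.

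With limma, 0 of the 36 members passed an adjusted p of 0.05, and 0 of all 21789 probe sets did (the smallest adjusted p was 0.18), while 3265 probe sets had an unadjusted p under 0.05. As an alternative, the methods' t-test gave 2 probe sets after adjustment, neither of them a member, and 2014 before it. At an unadjusted p under 0.05, 3 members were lower in I/R grafts (Ifitm3, Parp9 and Xaf1, 8.33% of the 36), beside 7.35% of all probe sets, and 2 were higher (Ifitm1 and Ifnar1, 5.56%), beside 7.64%. These shares were near those of all probe sets. All values of the I/R group lay below all values of the non-I/R group for 10 members (27.8%), beside 16.2% of all probe sets, and above them for 2 members (5.56%), beside 15.8%. With 3 grafts against 2, an exact two-sided permutation test cannot go below 0.1, and since nothing in the labels says how the grafts relate to separate operations or days, p-values measure only the spread between these grafts.

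Of the receptor chains, Ifnar1 was higher in I/R grafts at an unadjusted p under 0.05, and the groups overlapped for Ifnar2. Ifnar1, the chain that recruits TYK2, had 9.83, 9.74 and 9.81 in I/R grafts, against 9.49 and 9.40 in non-I/R grafts. Every I/R graft lay above both non-I/R grafts, and the means of 9.79 ± 0.0503 (SD, n = 3) and 9.45 ± 0.0664 (SD, n = 2) differed by 0.35 (SE 0.0489), 1.27-fold higher (limma, unadjusted p = 0.00246, adjusted p = 0.282). Ifnar2, the chain that binds interferon more tightly, had 10.60, 10.38 and 10.39 in I/R grafts, against 10.59 and 10.39 in non-I/R grafts. Each group had a high and a low Ifnar2 value, and the difference of -0.03 had a 95% interval of -0.33 to 0.26.

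Of the transcription factors of the response, none had an unadjusted p under 0.05. Irf9, the DNA-binding part of ISGF3, had 9.43, 9.32 and 9.43 in I/R grafts, against 9.53 and 9.43 in non-I/R grafts, with a difference of -0.09 (SE 0.0582). Irf7, which drives the later wave of interferon production, had 8.85, 8.97 and 8.24 in I/R grafts, against 9.07 and 9.14 in non-I/R grafts. The Irf7 groups did not overlap, but graft 2557 lay much lower than the other I/R grafts, and the difference of -0.42 had a 95% interval of -1.16 to 0.32. Stat2 had a difference of -0.28 (SE 0.17) and Irf1, a factor also induced by interferon gamma, one of 0.10 (SE 0.164), both with overlapping groups.

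The sensors and their regulators were close to level or slightly lower. Ddx58, which encodes the RNA helicase RIG-I, had 9.30, 9.38 and 9.35 in I/R grafts, against 9.39 and 9.36 in non-I/R grafts, a difference of -0.04 (SE 0.0317). Ifih1 (the RNA helicase MDA5) and Zbp1 (a sensor of left-handed nucleic acid that can start necroptosis) were lower in every I/R graft than in both non-I/R grafts, with differences of -0.21 (SE 0.101) and -0.33 (SE 0.163), without an unadjusted p under 0.05. Without graft 2554 these differences were -0.12 for Ifih1 and -0.15 for Zbp1. Dhx58 (LGP2) and Eif2ak2 (PKR, the kinase that halts translation) had differences of -0.21 and -0.10. Trim25, the ubiquitin ligase that acts on RIG-I, was the only sensor gene with a higher I/R mean, by 0.13.

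The IFIT genes, whose proteins bind foreign RNA and block its translation, varied more among the I/R grafts than between the groups. Ifit3 had 9.64, 9.83 and 8.55 in I/R grafts, against 9.68 and 9.83 in non-I/R grafts, so that 2 of the 3 I/R grafts were level with the non-I/R grafts and graft 2557 was far below. The difference of -0.42 (SE 0.46) had a 95% interval of -1.72 to 0.88. Ifit1 had 8.87, 9.11 and 8.04 in I/R grafts, against 8.97 and 9.19 in non-I/R grafts, again with the low value in graft 2557. Ifit2 had a difference of 0.04, with a range of 0.58 within the I/R group and 0.57 within the non-I/R group. Ifit2 and Ifit3 are neighbours on chromosome 19, and the IFIT, IFITM and OAS genes belong to families of similar sequence, whose cross-hybridisation was not tested.

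The oligoadenylate synthetases make the small messenger that activates RNase L. Oasl2, a family member, had 9.83, 10.11 and 9.66 in I/R grafts, against 10.13 and 10.03 in non-I/R grafts. Graft 2555 was level with the non-I/R grafts and the other I/R grafts were lower, with a difference of -0.21 (SE 0.156). Oas1a, Oas2, Oas3 and Oasl1 had differences between -0.06 and 0.09. Graft 2555 had the highest value of all grafts in Oas2, with 8.50, 9.28 and 8.82 in I/R grafts, against 9.02 and 8.82 in non-I/R grafts.

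The Mx proteins are GTPases that trap viral nucleocapsids. Mx1 had 5.97, 6.02 and 5.65 in I/R grafts, against 6.23 and 5.82 in non-I/R grafts, with overlapping groups and a difference of -0.14 (SE 0.191). Mx2 had 5.25, 5.17 and 4.97 in I/R grafts, against 5.41 and 5.27 in non-I/R grafts, a difference of -0.21 (SE 0.106). The Mx2 groups were separated by a gap smaller than the range within either group. All Mx1 and Mx2 values lay below the array medians of 6.58 to 6.65.

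Rsad2 encodes viperin, which makes a chain-terminating nucleotide from the product of its neighbour on chromosome 12, Cmpk2. Rsad2 had 8.92, 9.35 and 8.15 in I/R grafts, against 8.90 in both non-I/R grafts. The I/R grafts lay on both sides of the non-I/R value, and the difference of -0.10 had a 95% interval of -1.23 to 1.04. Cmpk2 had a difference of -0.14, also with its lowest value in graft 2557.

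Of the system that attaches ISG15 to proteins, Usp18 and Herc6 were measured. Usp18, the protease that removes ISG15 and holds back the receptor, had 8.87, 8.95 and 8.64 in I/R grafts, against 9.08 and 9.03 in non-I/R grafts. All I/R grafts were lower, with a difference of -0.24 (SE 0.107, limma, unadjusted p = 0.0949). Herc6, the ligase for ISG15 in mice, had a difference of -0.27, with a range of 0.52 within the I/R group.

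Among the membrane restriction factors, Ifitm1 was higher and Ifitm3 lower in I/R grafts at an unadjusted p under 0.05. Ifitm1, which blocks viral entry at the cell membrane, had 11.41, 11.86 and 11.67 in I/R grafts, against 10.75 and 10.77 in non-I/R grafts. Every I/R graft was higher, and the means of 11.65 ± 0.226 (SD, n = 3) and 10.76 ± 0.0159 (SD, n = 2) differed by 0.89 (SE 0.151), 1.85-fold higher (limma, unadjusted p = 0.00474, adjusted p = 0.282). A further probe set of Ifitm1 had 10.60, 10.86 and 10.67 in I/R grafts, against 9.80 and 9.87 in non-I/R grafts, 1.84-fold higher (limma, unadjusted p = 0.00101, adjusted p = 0.282).

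Ifitm3, which acts at endosomes, had 12.24, 12.44 and 12.36 in I/R grafts, against 12.75 and 12.64 in non-I/R grafts. Every I/R graft was lower, with means of 12.35 ± 0.103 (SD, n = 3) and 12.70 ± 0.0841 (SD, n = 2) and a difference of -0.35 (SE 0.0805), 1.27-fold lower (limma, unadjusted p = 0.0138, adjusted p = 0.284). The unadjusted p of Ifitm3 was 0.0834 without graft 2554 and 0.0791 after quantile normalization. Bst2 (tetherin, which holds budding virus at the membrane) was also lower in every I/R graft, with a difference of -0.18 (SE 0.0935).

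**Figure D2:**
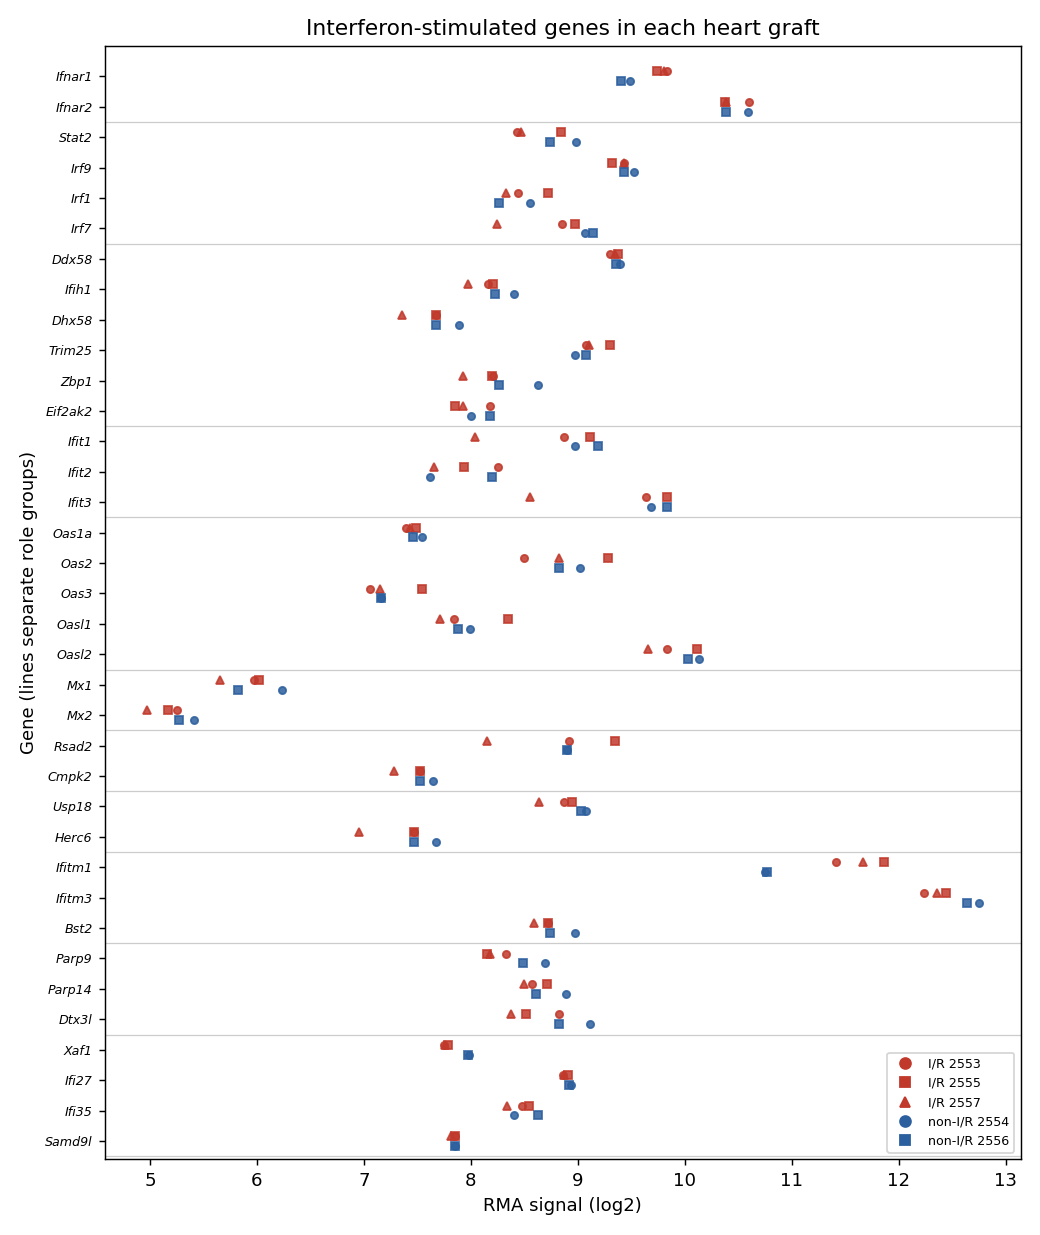
Log2 expression (RMA) of each of the 36 measured members in each graft, with I/R grafts (red) drawn above non-I/R grafts (blue) and members ordered by role. Graft 2557 (red triangles) has the lowest value in 19 of the 36 members and graft 2554 (blue circles) the highest in 20, while Ifitm1 is higher in all 3 I/R grafts.

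Parp9 and Dtx3l, neighbours on chromosome 16 whose proteins form a complex of an ADP-ribosyltransferase and a ubiquitin ligase, both had lower I/R means. Parp9 had 8.33, 8.15 and 8.18 in I/R grafts, against 8.69 and 8.49 in non-I/R grafts. Every I/R graft was lower, with means of 8.22 ± 0.0989 (SD, n = 3) and 8.59 ± 0.138 (SD, n = 2) and a difference of -0.37 (SE 0.0935), 1.29-fold lower (limma, unadjusted p = 0.0182, adjusted p = 0.286). The unadjusted p of Parp9 was 0.0859 without graft 2554, 0.0613 without graft 2555 and 0.0651 without graft 2557. Dtx3l had 8.82, 8.52 and 8.38 in I/R grafts, against 9.11 and 8.82 in non-I/R grafts, a difference of -0.40 (SE 0.179) with graft 2553 level with graft 2556. Parp14, from the same stretch of the chromosome, had a difference of -0.16.

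Xaf1, a partner of the apoptosis inhibitor XIAP, had the smallest standard error of the members with an unadjusted p under 0.05. It had 7.75, 7.79 and 7.76 in I/R grafts, against 7.98 and 7.97 in non-I/R grafts. Every I/R graft was lower, with means of 7.77 ± 0.02 (SD, n = 3) and 7.97 ± 0.00711 (SD, n = 2) and a difference of -0.21 (SE 0.0226), 1.15-fold lower (limma, unadjusted p = 0.000989, adjusted p = 0.282). When only the probe sets without tied values were fitted, the unadjusted p of Xaf1 was 0.0862.

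Ifi44, a gene widely used as a marker of the interferon response, had 9.01, 8.31 and 8.34 in I/R grafts, against 9.74 and 9.75 in non-I/R grafts. Its means were 8.55 ± 0.393 (SD, n = 3) and 9.75 ± 0.00691 (SD, n = 2), a difference of -1.20. Because its change is what put it on the list through which it was named, it bears on no count here. Of the remaining members, Ifi27, Ifi35 and Samd9l had differences between -0.06 and -0.01. Ifi27 was lower in every I/R graft, with a difference of -0.05 (SE 0.0245).

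**Figure D3:**
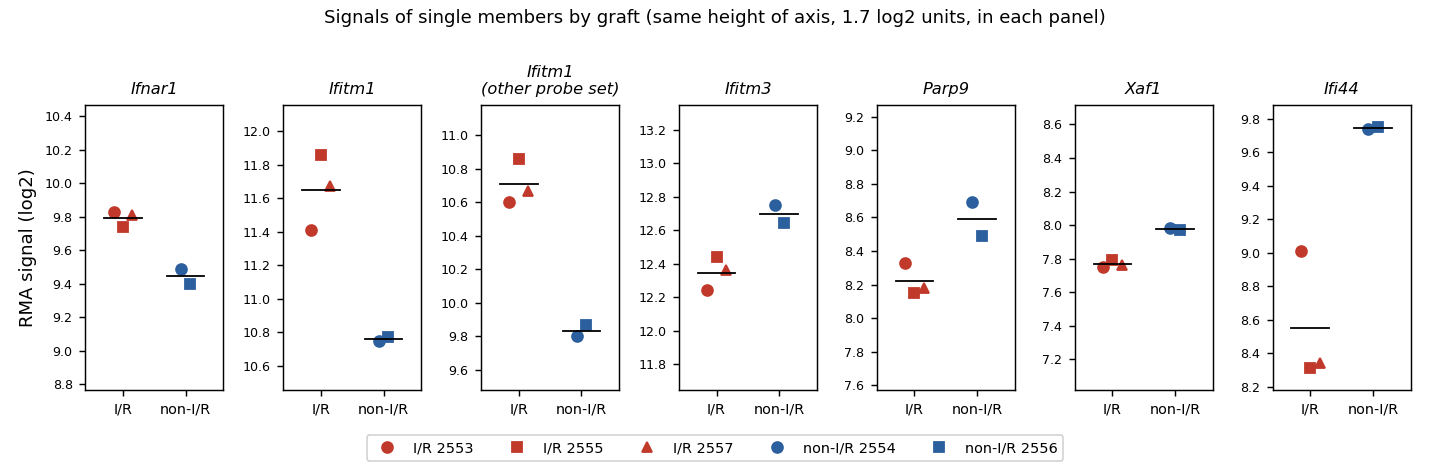
Log2 expression in each graft of the 5 members with an unadjusted p under 0.05, the further probe set of Ifitm1, and Ifi44, with I/R grafts (red) left of non-I/R grafts (blue), a line at each group's mean and axes of equal height. Ifnar1 and Ifitm1 are higher in every I/R graft, and Ifitm3, Parp9, Xaf1 and Ifi44 are lower in every I/R graft.

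The 95% intervals of 31 of the 36 members lay within a 2-fold difference in either direction. The other 5 were Ifitm1, Irf7, Ifit1, Ifit3 and Rsad2. The last 4 of these had their lowest value in graft 2557, and their ranges within the I/R group were 0.73 for Irf7, 1.07 for Ifit1, 1.28 for Ifit3 and 1.20 for Rsad2.

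Across the members the grafts differed as much within the groups as between them. Averaged over the 36 members, the deviation from each gene's mean over the 5 grafts was -0.01 in graft 2553, 0.09 in 2555 and -0.21 in 2557 (I/R), against 0.11 in 2554 and 0.03 in 2556 (non-I/R). Graft 2557 was the lowest of the 5 for 19 of the 36 members (52.8%), beside 9.74% of all probe sets, and was the highest for 0. Graft 2554 was the highest for 20 members (55.6%), beside 28.4% of all probe sets. Without graft 2557 the median difference of the members was -0.07, without graft 2554 it was -0.10, and in both cases 27 of the 36 I/R means were lower. Without graft 2554 the differences of Ifitm3, Parp9 and Xaf1 were -0.29, -0.27 and -0.20.

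Other genes of the pathway gave no common direction. Of 13 genes that sense nucleic acid or induce interferon, 1 was lower and 2 were higher at an unadjusted p under 0.05. Of all probe sets, 7.35% were lower and 7.64% higher at that threshold. The median difference of the 13 genes was 0.10. Tlr3, the endosomal receptor for double-stranded RNA, differed by -0.47 (SE 0.145), and Tbk1 and Ikbke, the kinases that activate IRF3, by 0.21 (SE 0.0693) and 0.48 (SE 0.164). Mavs, the mitochondrial adaptor of the RNA helicases, differed by -0.36, Irf3 by 0.21 (SE 0.103) and Irf5 by 0.39. Ifnb1, the interferon beta gene itself, had 4.60, 4.59 and 4.60 in I/R grafts, against 4.71 and 4.60 in non-I/R grafts. These values lay far below the array medians of 6.58 to 6.65, so they do not show whether Ifnb1 was level. Of 8 receptor kinases, STATs and feedback genes, 1 was lower (Stat3, -0.21, SE 0.0527) at that threshold, beside 7.35% of all probe sets. There was 1 higher (Ptpn6, a phosphatase of blood cells, 0.47, SE 0.153), beside 7.64%. Jak1 and Tyk2 differed by 0.03 and 0.12.

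Of 28 further interferon-induced genes, 19 had a lower I/R mean and 9 a higher one, with a median of -0.13, which is close to that of the members. At an unadjusted p under 0.05, 5 were lower and 2 higher, beside 7.35% and 7.64% of all probe sets. Those lower were Rtp4 (-0.39, SE 0.0677), Slfn5 (-0.51, SE 0.107), Lgals3bp (-0.57, SE 0.124), Phf11d (-0.60, SE 0.171) and Ube2l6 (-0.52, SE 0.181), of which Ube2l6 encodes the conjugating enzyme for ISG15. Tdrd7 (0.31, SE 0.0826) and Daxx (0.11, SE 0.0309) were higher.

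The GTPases that are induced foremost by interferon gamma lay further from 0 than the members did. Of 14 listed, 7 were measured. All 7 had lower I/R means without overlap of the groups, beside 16.2% of all probe sets. Of these, 4 were lower at an unadjusted p under 0.05, beside 7.35% of all probe sets. The median difference of the 7 was -0.81, beside -0.14 for the members. Iigp1 differed by -2.50, Gbp4 by -1.20, Gbp9 by -0.81 and Irgm1 by -0.63. The difference between these GTPases and the members was not tested, and Gbp3 is both among them and among the 28 further genes. Ifng, Ifngr1 and Ifngr2 differed by 0.06, 0.05 and -0.01, and Ifng lay below the array medians in every graft.

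**Figure D4:**
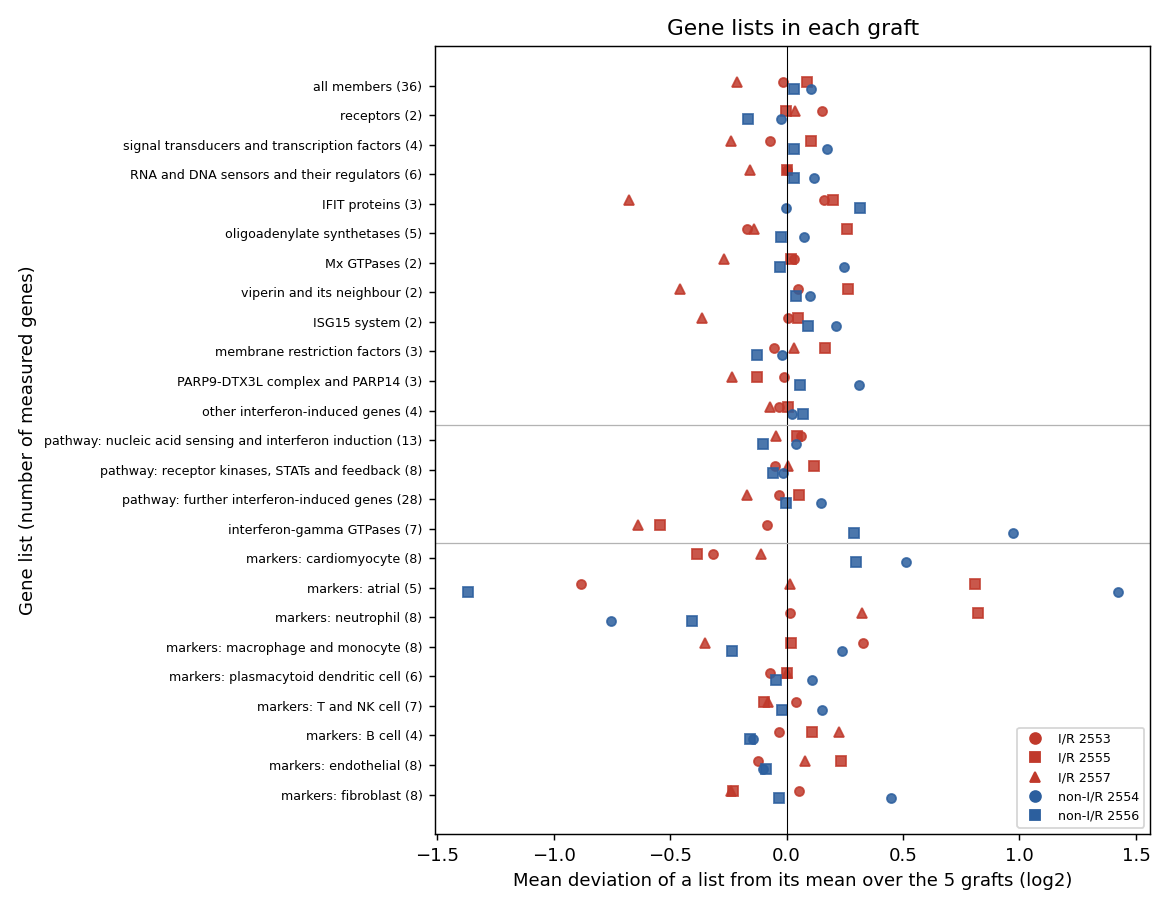
Mean deviation in log2 expression from each gene's mean over the 5 grafts, for the members, their role groups, the pathway lists, the interferon-gamma GTPases and the markers of cell types, in I/R grafts (red) and non-I/R grafts (blue). The members overlap between the groups, whereas the interferon-gamma GTPases and cardiomyocyte markers lie lower and the neutrophil markers higher in all I/R grafts.

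Markers of other cells differed between the grafts. The 8 cardiomyocyte markers were bright in every graft, with mean levels of 12.52, 12.46 and 12.73 in I/R grafts, against 13.35 and 13.14 in non-I/R grafts. All 8 had lower I/R means, with a median difference of -0.53. Of them, 7 had an unadjusted p under 0.05, beside 7.35% of all probe sets. All 8 neutrophil markers had higher I/R means, with a median of 0.99, and 4 had an unadjusted p under 0.05, beside 7.64% of all probe sets. The mean deviation of the neutrophil markers was 0.01, 0.82 and 0.32 in I/R grafts 2553, 2555 and 2557, against -0.75 and -0.41 in non-I/R grafts 2554 and 2556. The order of the grafts in this mean deviation was that of Ifitm1, with 2555 highest and 2554 lowest. The non-I/R values of Ifitm1, 10.75 and 10.77, were nearly equal, and Retnlg, Mmp8 and Ly6g were lowest in graft 2556. The mean deviation of the 8 macrophage markers was 0.33, 0.02 and -0.35 in I/R grafts, against 0.24 and -0.23 in non-I/R grafts. It overlapped between the groups and was lowest in graft 2557, as for the members. Single markers varied, and Cd68, Csf1r, Lyz2 and Fcgr1 were lowest in graft 2556. Ccr2 was higher in every I/R graft, by 0.72 (SE 0.197), while the other 7 overlapped. The mean deviation of the fibroblast markers was highest in graft 2554, at 0.45, although Pdgfra had its lowest value there. The 6 measured markers of plasmacytoid dendritic cells, known as strong producers of type I interferon, had a median difference of -0.01. Values were tied in 5 of them, and Siglech, Ccr9 and Cd209d lay below the array medians of 6.58 to 6.65. Cox6a2 was nearly as bright as the cardiomyocyte markers, at 12.24 in I/R and 12.53 in non-I/R grafts. This median therefore does not show whether these cells were level. Median differences were -0.33 for 8 fibroblast, -0.12 for 7 T and NK cell, 0.31 for 4 B cell and 0.13 for 8 endothelial markers. At most 1 gene of each list had an unadjusted p under 0.05. Values were tied in 6 of the T and NK cell and 2 of the B cell markers. The mean level of each of these lists lay below the array medians in every graft. The T, NK and B cell medians therefore do not show whether those cells were level. Some atrial genes differed between grafts within both groups, with Myl7 at 6.72, 11.08 and 8.56 in I/R grafts, against 10.67 and 5.52 in non-I/R grafts. Myl4 and Sln were also highest in grafts 2555 and 2554. Nppa varied less, from 12.13 to 12.95, and Bmp10 was high in graft 2554 (7.29) but not in graft 2555 (4.79). Leaving out the grafts with the highest Myl7, 2555 and 2554, kept I/R grafts 2553 and 2557 and non-I/R graft 2556. Among these Ifitm1 differed by 0.77, Ifnar1 by 0.42, Ifitm3 by -0.34, Parp9 by -0.24 and Xaf1 by -0.21. The part of these cells in the differences of the members was not tested.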

How the data were processed

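RNA from 5 heart grafts (3 I/R, 2 non-I/R) was measured on Affymetrix Mouse Gene ST arrays. The values are log2 expression as the authors deposited it after RMA, which corrects background, equalises the arrays and summarises probes. Partek and RMA are named in the submitters' processing notes, with no version, and the build of the array annotation is not given in the sources used here. RMA can hide a shift shared by most genes. Array medians were 6.58 to 6.65, and the number of arrays limits precision.

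Probe sets were named by GEO's platform annotation, with 21698 gene IDs matched to GRCm38.p6 names. A single symbol was given for 21789, several for 1621, and 12146 were not listed. No filter on low values was applied. Groups were compared two-sided with limma 3.58.1 (lmFit, eBayes, prior df 0.824) in R 4.3.3, with Benjamini-Hochberg adjustment over the 21789. Values were tied in 11715 probe sets and in 9 of the 36 members. The study's table of its own fold changes served only to name the probe set of Ifi44. It was the only probe set without a single symbol whose difference and error sum of squares matched the study's values. The difference given for Ifi44 therefore equals the study's by this choice. Sequences are from RefSeq. The members, lists and tests were chosen with earlier results of these data known.

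Values for every graft are given for members with an unadjusted p under 0.05, both receptor chains, Ifi44 and the brightest member of each remaining role group, with a few others chosen after their values were seen. Pathway genes named are up to 6 of each list with the smallest p, and Jak1, Tyk2, Irf3 and Ifnb1. Irf5 and Ube2l6 lie outside this rule, and Ube2l6 was added after its value was seen. A further gene of this rule is not reported here. The 19 alternatives covered eBayes settings, array weights, normalizations, filters, probe set choice, the methods' t-test and left-out grafts. Only the limma fit was tested on simulated data, in which the genes were independent. Python 3.11.15 with matplotlib 3.10.9 made the figures. The labels give no batch.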

Additional observations from a re-analysis of the deposited data

How the results depend on the processing

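The 29 lower and 7 higher means among 36 members became 27 to 31 lower means over all alternatives that kept the 36. The median difference stayed below 0 in all 19, between -0.22 and -0.07. The number lower at an unadjusted p under 0.05 was 3, beside 7.35% of all probe sets. It was 3 or 4 with an I/R graft left out, beside 4.78% to 6.77%, and 4 with array weights, beside 8.35%. With untied probe sets only it was 2 of 27 members, beside 15.7%. The number higher was 2 in each of these fits, beside 4.7% to 15.6% of all probe sets. Counts are left out for fits with 1 non-I/R graft. Ifnar1 kept its unadjusted p under 0.05 throughout, while each of Ifitm1, Ifitm3, Parp9 and Xaf1 missed it in at least 1 alternative. Stat2, Oasl2, Usp18, Dtx3l and Bst2 passed it in some.

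Some differences near 0 changed sign. With array weights Ifit2 was -0.088 and Oasl1 -0.088, with median-centred arrays Samd9l was 0.017, and after quantile normalization Ifnar2 was 0.0009. Without grafts 2554 and 2555 together Ifnar2 was 0.10, Irf9 0.0005, Ifit2 -0.24, Oas3 -0.054 and Oasl1 -0.11. With a graft left out, the differences ran from -0.25 to 0.32 for Ifit2, -0.26 to 0.13 for Oas2, -0.13 to 0.064 for Ifnar2, -0.046 to 0.24 for Irf1, -0.054 to 0.19 for Oas3, -0.16 to 0.16 for Oasl1, -0.37 to 0.23 for Rsad2, -0.35 to 0.063 for Mx1 and -0.17 to 0.052 for Ifi35. Those values rest on fewer grafts, and for the other changes the cause was not tested. Without a non-I/R graft, the lone graft left is assumed to vary like the I/R grafts. No paired analysis was possible because the labels carry no replicate numbers that could pair grafts between the groups.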
